A study of Mus musculus with 28 samples.

Results

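MHC class II presentation genes are the genes of the I-A and I-E chains, of the proteins that load them with peptide and of their transcriptional activator, followed here across 4 genotypes in whole kidney and in macrophages sorted from kidney. The 9 genes were chosen by name, as H2-Aa, H2-Ab1, H2-Eb1, H2-DMa, H2-DMb1, H2-DMb2, H2-Ob, Cd74 and Ciita, with earlier results of these data known. All 9 were listed in both deposited tables, among 12315 genes in kidney and 10523 genes in macrophages. Polyadenylated RNA was sequenced from female C57BL/6 littermates aged 7 to 9 months. The genotypes were Fcgr2b-/-Rhbdf2-/-, called double mutant here, which lacks both genes, then Fcgr2b-/-, Rhbdf2-/- and wild type (WT). Fcgr2b encodes a receptor that restrains B and myeloid cells when it binds IgG, and mice without it develop lupus and nephritis on this background. Rhbdf2 encodes iRhom2, a partner that the sheddase ADAM17 needs to mature in immune cells. The labels give no cell type in which either knockout is restricted, and do not say whether each library is a separate mouse or whether kidneys and macrophages came from the same mice, and the p-values thus reflect variation among libraries that may be partly technical. There were 4 whole kidney libraries and 3 libraries of CD45+F4/80hiCD11b+Ly6G-Ly6C- macrophages per genotype. The titles of the double-mutant libraries name the Rhbdf2 knockout alone while the genotype label gives both alleles, and the label was followed.

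A class II molecule is a pair of an alpha and a beta chain that shows peptides from endosomes to CD4 T cells. The pair is assembled with the invariant chain, which Cd74 encodes and which blocks the peptide groove until endosomal cathepsins cut it. DM then exchanges the remaining fragment for a peptide, and DO holds DM back. Ciita encodes the coactivator that most class II genes need, and interferon gamma induces it in macrophages and tubular epithelium, while dendritic cells and B cells express class II constitutively. C57BL/6 mice carry a broken I-E alpha gene, so H2-Eb1 transcripts are made without an I-E molecule at the surface.

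Depth, taken from reads recovered in the listed genes, was 29011631 to 41614302 reads per kidney library and 30849782 to 34871231 per macrophage library, and a floor of 3 reads lay at no more than 0.106 CPM in kidney and 0.0989 CPM in macrophages. Values are CPM, reads scaled to the authors' library sizes, as the antilog of the deposited log2 CPM, in the order of the replicates. Of the targeted genes, Rhbdf2 was at 9.29 to 19.7 CPM in double-mutant and 10.8 to 12.3 CPM in Rhbdf2-/- kidneys, against 12.9 CPM in each WT kidney, and Fcgr2b was at 455 to 549.9 CPM in double-mutant and 256 to 382 CPM in Fcgr2b-/- macrophages, against 539 to 715 CPM in WT macrophages. Which exons were deleted is not stated in these sources, and the reads do not check the labels, so genotypes are as labelled. The kidney libraries of a genotype shared a lane that no other genotype used, and effects of lane and genotype cannot be told apart. The 13 macrophage markers summed to 1031, 1503, 1716 and 456 CPM in the 4 double-mutant kidneys. Replicate 4 was the lowest, and macrophages carry class II themselves, so singling it out is not independent of the class II values. Results on double-mutant kidneys are given with and without replicate 4. In sorted macrophages all 13 macrophage markers were listed and summed to 40689 to 48329.7 CPM in double-mutant, 49167 to 64577 CPM in Fcgr2b-/-, 28507 to 31852 CPM in Rhbdf2-/- and 25907 to 35483 CPM in WT libraries.

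Class II promoters share a module of an X box, bound by the RFX complex, and a Y box, bound by NF-Y, to which the Ciita protein attaches. Windows from RefSeq (GRCm38.p6, from 250 bases before to 50 after the gene start) were searched for the letters CTNNNAAC, the core of the X box, followed within 30 bases on one strand by GATTGG, the core of the Y box. The motif letters were chosen with these sequences in view, and a match describes letters in a window, not a bound site. A window was matched for 5 of the 9 genes, each on chromosome 17 and each holding the pair. They are shown because the 5 genes share this arrangement while their changes below differ, with the X and Y cores in capitals and 5′ to 3′ on the gene's own strand.
H2-Aa (chr17:34287853-34287919, minus strand): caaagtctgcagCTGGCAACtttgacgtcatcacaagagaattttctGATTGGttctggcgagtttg
H2-Eb1 (chr17:34305761-34305826, plus strand): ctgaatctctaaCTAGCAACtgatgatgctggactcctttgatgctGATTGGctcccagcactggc
H2-DMb1 (chr17:34153082-34153148, plus strand): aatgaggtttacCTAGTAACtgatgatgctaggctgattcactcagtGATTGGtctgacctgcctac
H2-DMb2 (chr17:34145111-34145177, plus strand): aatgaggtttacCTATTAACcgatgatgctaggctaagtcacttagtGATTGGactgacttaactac
H2-Ob (chr17:34238803-34238866, plus strand): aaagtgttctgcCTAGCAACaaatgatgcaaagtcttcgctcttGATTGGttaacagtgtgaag
Between the cores lay 27 bases in H2-Aa, H2-DMb1 and H2-DMb2, 26 in H2-Eb1 and 24 in H2-Ob. The pair in this order and spacing was present in 153 of 32851 RefSeq promoter windows of the same length (0.466%), while GATTGG on either strand was in 16.1% and CTNNNAAC in 41.1%. H2-Ab1, H2-DMa, Cd74 and Ciita are named without a window.

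The genes other than Cd74 and Ciita lie in the class II region of chromosome 17, from H2-DMa at 34135182 to 34139101 to H2-Eb1 at 34305877 to 34316199 (GRCm38, deposited positions). Ciita lies on chromosome 16 at 10488178 to 10527564 and Cd74 on chromosome 18. All 9 are annotated as protein coding in GENCODE M21. H2-DMb1 and H2-DMb2, neighbouring copies of the DM beta gene, share 369 of the 1629 words of 50 bases in the H2-DMb1 transcripts (22.7%), the read length in kidney, so the split of reads between them is uncertain. H2-DMa overlaps Brd2 on the opposite strand and shares 8.43% of its words with it, and H2-Eb1 overlaps an antisense gene. Ciita overlaps Dexi on the opposite strand and shares 1.46% of its words with it. These are GENCODE spans, and that of H2-DMa starts at 34119541, before the deposited start. Whether the overlaps reach the deposited intervals was not tested. No source used here states whether counting used strand, and reads of such overlapping partners cannot be told apart.

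Levels are compared between genes per kilobase of the deposited exon length. In WT macrophages the order by mean CPM per kb was Cd74, H2-Eb1, H2-Aa, H2-Ab1, H2-DMa, H2-DMb1, H2-Ob, Ciita and H2-DMb2. Cd74 was at 85244 to 125151 CPM per kb there, H2-Eb1 at 14657 to 20714, H2-Aa at 11166 to 16236 and H2-Ab1 at 7879.8 to 10071 CPM per kb. The ranges of H2-Eb1 and H2-Aa overlapped, so these neighbours do not differ beyond their spread, and H2-Ab1 lay below both. H2-DMa and H2-DMb1 followed at 715 to 1406 and 524 to 861 CPM per kb, H2-Ob at 25.6 to 40.8, Ciita at 13.6 to 21.0 and H2-DMb2 at 6.72 to 19.5 CPM per kb, with overlap of H2-DMa with H2-DMb1 and of Ciita with H2-DMb2. In WT kidneys Cd74 again led, at 197 to 258 CPM per kb, then H2-Eb1 at 88.5 to 115, H2-Ab1 at 64.8 to 89.3 and H2-Aa at 54.6 to 71.5 CPM per kb, each chain overlapping the next. H2-DMb1 and H2-DMa stood at 10.5 to 13.1 and 5.87 to 7.63 CPM per kb, and H2-Ob, H2-DMb2 and Ciita at 0.554 to 1.27, 0.443 to 1.46 and 0.289 to 0.360 CPM per kb, ranges that overlap for H2-Ob with H2-DMb2, while Ciita lay below both. By mean CPM, not per length, Cd74 ranked first of all listed genes in the macrophages of every genotype. The 9 genes together took 16.9% to 21.9% of listed reads in double-mutant, 6.43% to 10.7% in Fcgr2b-/-, 21.2% to 24.9% in Rhbdf2-/- and 19.2% to 23.9% in WT macrophages. In kidney they took 0.0812% to 1.31% in double-mutant, 0.169% to 0.441% in Fcgr2b-/-, 0.0600% to 0.112% in Rhbdf2-/- and 0.0583% to 0.0776% in WT libraries.

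In Fcgr2b-/- kidneys 7 of the 9 genes rose against WT, beside 29.5% of all 12315 genes called higher in the same test, and none of the 9 fell, beside 30.8% called lower. The test was limma on log2(CPM+1) with Benjamini-Hochberg adjustment over all genes, n = 4 per genotype, and a gene was called at an adjusted p below 0.05. The median log2 change over the 9 genes was 1.75, beside -0.01 over all genes. H2-Aa, the I-A alpha chain, was at 635, 252, 541 and 267 CPM in Fcgr2b-/- kidneys, against 102, 116, 134 and 111 CPM in WT kidneys (log2 change 1.75 ± 0.54 (SE), adjusted p = 0.0122). H2-Ab1, the I-A beta chain, was at 629, 277, 522 and 335 CPM in Fcgr2b-/- kidneys, against 106, 119, 146 and 112 CPM in WT kidneys (log2 change 1.79 ± 0.58 (SE), adjusted p = 0.0148). H2-Eb1, the I-E beta chain, was at 606, 247, 517 and 263 CPM in Fcgr2b-/- kidneys, against 105, 119.6, 136 and 107 CPM in WT kidneys (log2 change 1.69 ± 0.49 (SE), adjusted p = 0.00796). For all 3 chains each Fcgr2b-/- library lay above each WT library, with replicates 1 and 3 high and 2 and 4 low among the Fcgr2b-/- kidneys. Cd74, the invariant chain, followed the same libraries at 1856, 728, 1435 and 819.7 CPM in Fcgr2b-/- kidneys, against 278, 304, 364 and 298 CPM in WT kidneys (log2 change 1.86 ± 0.61 (SE), adjusted p = 0.0167).

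All 3 DM genes rose as well. H2-DMa, the DM alpha chain, was at 52.5, 29.3, 42.8 and 40.2 CPM in Fcgr2b-/- kidneys, against 9.64, 12.5, 12.1 and 9.79 CPM in WT kidneys (log2 change 1.79 ± 0.56 (SE), adjusted p = 0.0121). H2-DMb1, a DM beta chain, was at 58.9, 44.9, 43.6 and 46.7 CPM in Fcgr2b-/- kidneys, against 16.2, 18.5, 19.4 and 15.6 CPM in WT kidneys (log2 change 1.42 ± 0.41 (SE), adjusted p = 0.00795). The second DM beta gene, H2-DMb2, was at 15.9, 6.89, 8.99 and 13.1 CPM in Fcgr2b-/- kidneys, against 0.854, 0.758, 2.49 and 0.932 CPM in WT kidneys (log2 change 2.43 ± 0.89 (SE), adjusted p = 0.0283). None of the 3 overlapped between the groups, and H2-DMb1 varied least over the 4 Fcgr2b-/- libraries. The other 2 genes did not pass the test. H2-Ob, the DO beta chain, was at 2.43, 1.22, 2.56 and 0.945 CPM in Fcgr2b-/- kidneys, against 2.03, 1.91, 4.01 and 1.75 CPM in WT kidneys (log2 change -0.30 ± 0.41 (SE), adjusted p = 0.538), and the groups overlapped. Ciita was at 3.73, 1.41, 5.13 and 2.23 CPM in Fcgr2b-/- kidneys, against 1.56, 1.52, 1.89 and 1.56 CPM in WT kidneys (log2 change 0.56 ± 0.54 (SE), adjusted p = 0.383), with 1 Fcgr2b-/- library below all WT libraries. The call on H2-DMb2 was lost without WT replicate 1, 2 or 4 or Fcgr2b-/- replicate 1 or 4 (adjusted p 0.0543 to 0.0649, log2 change 2.26 to 2.38) and with voom on recovered reads (3.27, adjusted p = 0.25), and the call on Cd74 without Fcgr2b-/- replicate 1 (1.61, adjusted p = 0.0503).

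**Figure D1:**
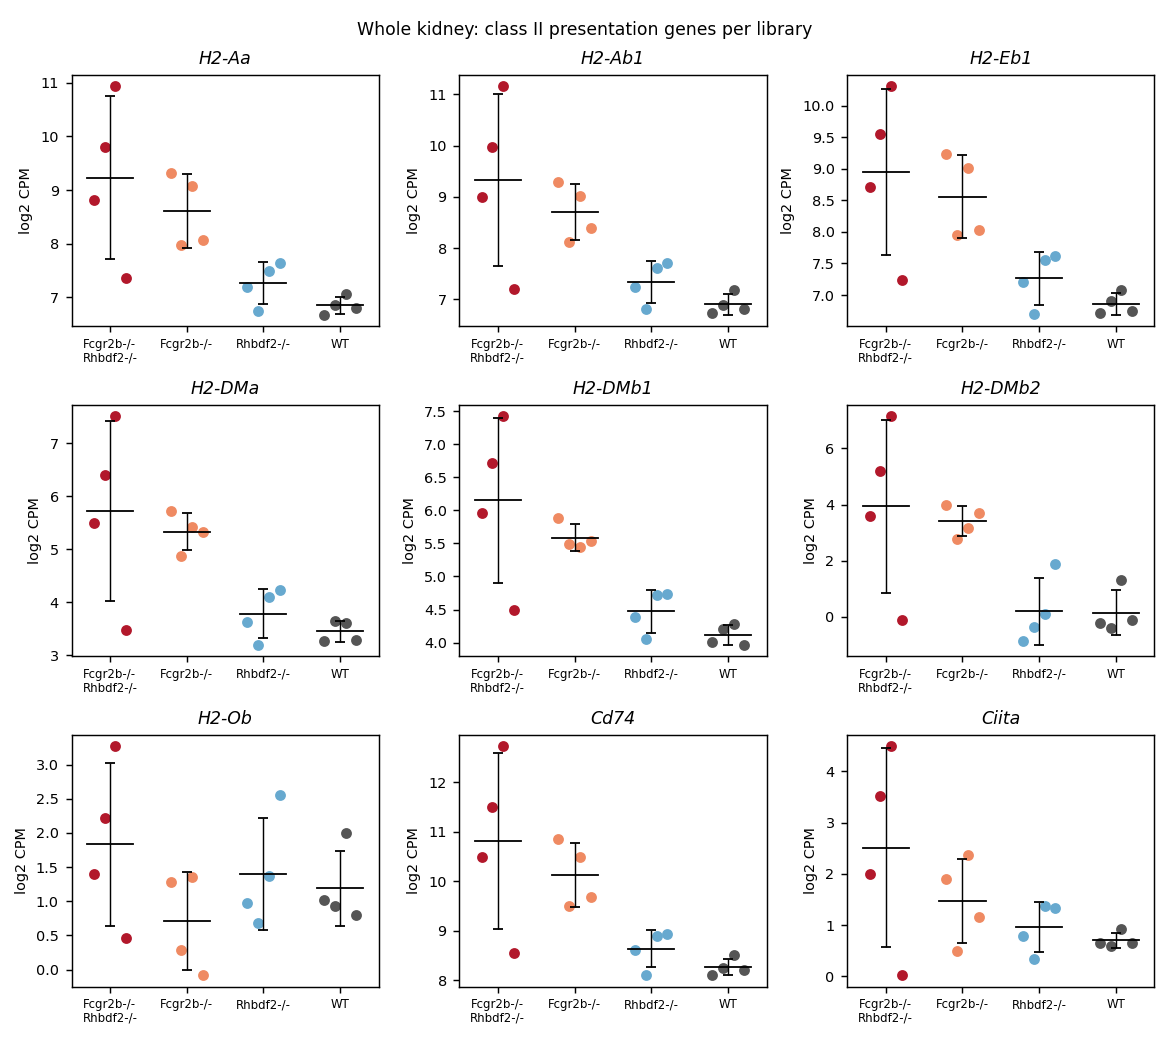
The 9 class II presentation genes in whole kidney, as log2 CPM per library (points) by genotype on the x axis, with the mean (line) and SD (bars) of 4 libraries. H2-Aa, H2-Ab1, H2-Eb1, H2-DMa, H2-DMb1, H2-DMb2 and Cd74 sit higher in every Fcgr2b-/- library than in every WT library, and the lowest double-mutant point is replicate 4.

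Other genes of the pathway were counted in the same comparison of Fcgr2b-/- with WT kidneys, beside 29.5% of all genes called higher and 30.8% called lower. Ifngr1 and Ifngr2, the receptor for interferon gamma, rose, with log2 changes of 1.32 ± 0.12 (SE), adjusted p = 8.53e-07 and 1.24 ± 0.17 (SE), adjusted p = 2.41e-05. With Ifi30, the lysosomal thiol reductase of class II processing, 3 of 11 listed genes of the interferon gamma response rose, a share no higher than that over all genes, and none fell. Without double-mutant kidney replicate 4, which enters through the shared spread alone, 6 of the 11 rose, beside 30.4% of all genes. Irf1, an interferon-induced factor that acts on Ciita, did not pass at 1.09 ± 0.49 (SE), adjusted p = 0.0658. Of 8 processing genes 5 rose and 1, Ctsh, fell, a call lost under plain totals (-0.12, adjusted p = 0.32). The risers included Ctss, cathepsin S, which makes the last cut of the invariant chain in antigen-presenting cells (3.17 ± 0.43 (SE), adjusted p = 2.58e-05), and Ctsd, cathepsin D (1.26 ± 0.12 (SE), adjusted p = 1.41e-06). Of 5 costimulation genes 3 rose, with Cd86 at 1.75 ± 0.35 (SE), adjusted p = 0.000647, Cd40 at 1.32 ± 0.39 (SE), adjusted p = 0.0087 and Cd83 at 1.17 ± 0.42 (SE), adjusted p = 0.0265. Of the 7 factors that bind X and Y boxes none rose and Rfxank alone was lower (-0.33 ± 0.10 (SE), adjusted p = 0.00964), a call lost when libraries were scaled to plain totals (-0.13, adjusted p = 0.265). Of 5 genes of class II surface turnover 3 rose and 1 fell: March1, the ligase that removes class II from the surface, was at 0.75 ± 0.21 (SE), adjusted p = 0.0074 and its relative March8 at -0.44 ± 0.09 (SE), adjusted p = 0.000549.

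Markers of cells that carry class II moved in the same kidneys, where 29.5% of all genes were called higher and 30.8% lower. In bulk samples, fewer cells of a type and less RNA per cell cannot be told apart. Of 13 macrophage markers 12 rose and 1 fell in Fcgr2b-/- against WT kidneys (median log2 change 2.67), and they summed to 1078 to 2791 CPM in Fcgr2b-/- and 309 to 357 CPM in WT kidneys. The call on the 1 that fell was lost under plain totals (-0.30, limma adjusted p = 0.0803). The 5 listed dendritic cell markers of 10 summed to 34.8 to 61.6 CPM in Fcgr2b-/- and 22.6 to 23.6 CPM in WT kidneys, with 2 higher, and Zbtb46, the defining one listed, was at 0.28 ± 0.13 (SE), adjusted p = 0.0643. The 3 listed B cell markers of 8 summed to 11.8 to 30.5 CPM in Fcgr2b-/- and 9.48 to 16.9 CPM in WT kidneys and none passed the test. The 6 listed T cell markers of 8 summed to 20.3 to 56.6 CPM in Fcgr2b-/- and 8.52 to 12.7 CPM in WT kidneys, with 3 higher, or 5 without double-mutant replicate 4 in the fit. Markers of injured tubule, an epithelium that can be induced to express class II, were higher for 8 of 8 and summed to 8831 to 16513 CPM in Fcgr2b-/- and 2890.2 to 3256 CPM in WT kidneys, while 8 of 8 proximal tubule markers were lower. Their part in the class II result was not tested.

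Set against a macrophage transcript within each library, Cd74 gave different pictures by denominator. The ratio of Cd74 to Csf1r, the receptor for CSF1, in CPM per kb was 28.7, 24.6, 24.3 and 24.1 in Fcgr2b-/- kidneys, against 12.5, 13.6, 13.6 and 13.1 in WT kidneys. All 4 Fcgr2b-/- values lay above all WT values, a difference of 0.94 in mean log2 ratio (exact two-sided permutation test p = 0.0286, the smallest that 4 against 4 allows, and 0.143 adjusted over 5 pairs). Against Ptprc, the leukocyte gene of CD45, the difference was 0.17 (exact p = 0.0286), with ratios of 166 to 179 in Fcgr2b-/- and 145 to 156 in WT kidneys. Against Adgre1, the gene of F4/80, listed as Emr1, it was -0.54 (exact p = 0.0571), with ratios of 32.7 to 58.8 in Fcgr2b-/- and 57.5 to 74.4 in WT kidneys. The direction of the kidney change of Cd74 per macrophage transcript thus depended on the transcript.

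For each of the 9 genes the highest and lowest double-mutant kidneys lay further apart, as a ratio, than those of any other genotype. With all 4 libraries none of the 9 genes passed the test against Fcgr2b-/- kidneys, where limma called 45.3% of all genes in either direction and 22.5% as higher, and 6479 genes, but 0 of the 9, had an unadjusted p below 0.05. Voom called 0 of the 9. All 9 log2 changes were positive, from 0.39 for H2-Eb1 to 0.93 for Ciita, and the groups overlapped for all 9. H2-Aa was at 453, 897, 1967 and 165 CPM in double-mutant kidneys and 252 to 635 CPM in Fcgr2b-/- kidneys. H2-Ab1 was at 513, 1011, 2295 and 147 CPM in double-mutant kidneys and 277 to 629 CPM in Fcgr2b-/- kidneys. H2-Eb1 was at 422, 748, 1274 and 151 CPM in double-mutant kidneys and 247 to 606 CPM in Fcgr2b-/- kidneys. For these chains double-mutant replicates 2 and 3 lay above all Fcgr2b-/- kidneys, replicate 1 among them and replicate 4 below them. Cd74 was at 1434, 2906, 6756 and 374 CPM in double-mutant kidneys and 728 to 1856 CPM in Fcgr2b-/- kidneys. H2-DMa was at 45.1, 84.0, 182 and 11.2 CPM in double-mutant kidneys and 29.3 to 52.5 CPM in Fcgr2b-/- kidneys. H2-DMb1 was at 62.6, 105, 172 and 22.5 CPM in double-mutant kidneys and 43.6 to 58.9 CPM in Fcgr2b-/- kidneys. Replicate 3 was the highest and replicate 4 the lowest double mutant for each of the 9 genes. H2-DMb2 showed the widest spread, at 12.0, 36.3, 142 and 0.913 CPM in double-mutant kidneys and 6.89 to 15.9 CPM in Fcgr2b-/- kidneys. H2-Ob was at 2.64, 4.65, 9.63 and 1.37 CPM in double-mutant kidneys and 0.945 to 2.56 CPM in Fcgr2b-/- kidneys. Ciita, the coactivator, was at 4.02, 11.5, 22.4 and 1.02 CPM in double-mutant kidneys and 1.41 to 5.13 CPM in Fcgr2b-/- kidneys.

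The class II result in double mutants turned on replicates 3 and 4. Replicate 4 was the lowest double mutant for each of the 9 genes, so leaving it out raises each double-mutant mean. Without replicate 4 all 9 genes were higher in double-mutant than in Fcgr2b-/- kidneys, beside 19.4% of all genes called higher in that fit, with n = 3 double mutants. The log2 change was 1.55 ± 0.41 (SE), adjusted p = 0.0084 for Ciita and 1.44 ± 0.42 (SE), adjusted p = 0.0156 for Cd74. For the chains it was 1.25 ± 0.42 (SE), adjusted p = 0.0295 for H2-Aa, 1.34 ± 0.40 (SE), adjusted p = 0.017 for H2-Ab1 and 0.96 ± 0.37 (SE), adjusted p = 0.0499 for H2-Eb1. For DM and DO it was 1.11 ± 0.36 (SE), adjusted p = 0.0232 for H2-DMa, 1.10 ± 0.25 (SE), adjusted p = 0.00378 for H2-DMb1, 1.81 ± 0.61 (SE), adjusted p = 0.0302 for H2-DMb2 and 1.16 ± 0.39 (SE), adjusted p = 0.0283 for H2-Ob. Without replicate 3 in its place none passed and 3 turned negative, H2-Eb1 at -0.06, H2-DMa at -0.19 and H2-DMb2 at -0.26. The authors' deposited table called 1 of the 9, Ciita, with an FDR of 0.0491 over all libraries.

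Markers and related genes were counted in the same comparison. Of 13 macrophage markers none was higher and 4 were lower in double-mutant than in Fcgr2b-/- kidneys (median log2 change -0.77), and without replicate 4 the counts were 0 and 2. Over all genes 22.5% were higher and 22.8% lower in that comparison, and 19.4% and 20.1% without replicate 4. Of 11 interferon gamma genes 2 were higher and 3 lower with all libraries, and 7 were higher and 2 lower without replicate 4. With all libraries 7 of the 11 changes were positive, with a median log2 change of 0.55 and a range of -0.80 to 1.90. Ifngr1 was at -0.80 ± 0.12 (SE), adjusted p = 0.000149 and Ifi30 at -0.48 ± 0.16 (SE), adjusted p = 0.0206, both among the genes lower in double mutants. Markers of T cells gave 0 of 6 calls with all libraries and 5 of 6 higher without replicate 4, and their sums were 39.4, 73.3, 122 and 10.8 CPM in double-mutant and 46.4, 24.9, 56.6 and 20.3 CPM in Fcgr2b-/- kidneys. Injured tubule markers were lower for 7 of 8 in double mutants with and without replicate 4. The ratio of Cd74 to Csf1r was 38.0, 65.6, 145 and 13.0 in double-mutant kidneys, beside 24.1 to 28.7 in Fcgr2b-/- kidneys (difference in mean log2 ratio 0.88, exact permutation p = 0.314), so 3 of 4 double mutants lay above all Fcgr2b-/- kidneys and replicate 4 below them.

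Against WT kidneys 7 of 9 genes were higher in double mutants, beside 4.52% of all genes called higher. The log2 changes were 2.38 ± 0.54 (SE), adjusted p = 0.0212 for H2-Aa, 2.42 ± 0.58 (SE), adjusted p = 0.0241 for H2-Ab1 and 2.09 ± 0.49 (SE), adjusted p = 0.0229 for H2-Eb1. They were 2.54 ± 0.61 (SE), adjusted p = 0.0258 for Cd74, 2.19 ± 0.56 (SE), adjusted p = 0.0317 for H2-DMa, 1.98 ± 0.41 (SE), adjusted p = 0.0161 for H2-DMb1 and 3.14 ± 0.89 (SE), adjusted p = 0.0462 for H2-DMb2. H2-Ob at 0.52 ± 0.41 (SE), adjusted p = 0.477 and Ciita at 1.49 ± 0.54 (SE), adjusted p = 0.108 did not pass. The chains, Cd74 and H2-DMb1 did not overlap between the groups. Single libraries decided this count, with 0 of 9 called without WT replicate 1, WT replicate 4 or double-mutant replicate 2, 1 without double-mutant replicate 3, 3 without WT replicate 3 and 4 without WT replicate 2. Without double-mutant replicate 4 it was 8 of 9, beside 8.88% of all genes, and Ciita was among them (2.11 ± 0.41 (SE), adjusted p = 0.00313).

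Against Rhbdf2-/- kidneys 1 of 9 genes was higher in double mutants, beside 2.32% of all genes, and this was H2-DMb1 (1.64 ± 0.41 (SE), adjusted p = 0.0447). Cd74 was at 2.17 ± 0.61 (SE), adjusted p = 0.0585. Without double-mutant replicate 4 the count was 8 of 9, beside 9.07% of all genes, without Fcgr2b-/- replicate 4 it was 3, and without any single WT or Rhbdf2-/- library or double-mutant replicate 1, 2 or 3 it was 0. The Fcgr2b-/- and WT libraries enter this comparison through the shared estimate of spread alone. In Rhbdf2-/- against WT kidneys no gene passed the threshold: limma called 0 of 12315 genes (0%), 272 genes and 0 of the 9 had an unadjusted p below 0.05, and voom and the authors' deposited table called 0 as well. H2-Ab1 was at 152, 112, 195 and 211 CPM in Rhbdf2-/- kidneys, against 106, 119, 146 and 112 CPM in WT kidneys (log2 change 0.44 ± 0.58 (SE), adjusted p = 1), and the groups overlapped for all 9 genes. Cd74 was at 393, 277, 477 and 492 CPM in Rhbdf2-/- kidneys, against 278, 304, 364 and 298 CPM in WT kidneys (log2 change 0.37 ± 0.61 (SE), adjusted p = 1). The interaction, the change with Rhbdf2 loss on the Fcgr2b-/- background less that on the WT background, passed for none of the 9, with 27.8% of all genes called and 4922 with an unadjusted p below 0.05, of which none was among the 9. Voom called 0 of the 9.

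In sorted macrophages class II transcripts were lower in Fcgr2b-/- than in WT. Of the 9 genes, 8 fell in Fcgr2b-/- macrophages, beside 28.5% of all 10523 genes called lower, and none rose, beside 24.2% called higher. The ninth gene, H2-DMb2, did not pass. The median log2 change over the 9 genes was -1.28, beside -0.09 over all genes (limma, Benjamini-Hochberg adjusted, n = 3 per genotype). H2-Ab1 fell most of the chains, at 2323, 1285 and 1103 CPM in Fcgr2b-/- macrophages, against 12899, 14776 and 16486 CPM in WT macrophages (log2 change -3.30 ± 0.41 (SE), adjusted p = 6.36e-05). H2-Aa was at 14563, 8203 and 10156 CPM in Fcgr2b-/- macrophages, against 20926, 21649 and 30426 CPM in WT macrophages (log2 change -1.17 ± 0.28 (SE), adjusted p = 0.00416). H2-Eb1 was at 10646, 5898 and 6282 CPM in Fcgr2b-/- macrophages, against 17354, 18029 and 24526 CPM in WT macrophages (log2 change -1.43 ± 0.28 (SE), adjusted p = 0.00117). Each Fcgr2b-/- value lay below each WT value for all 3, and Fcgr2b-/- replicate 1 was the highest of its group in each. Cd74 was at 75909.9, 45074 and 52937 CPM in Fcgr2b-/- macrophages, against 120194, 121197 and 176462 CPM in WT macrophages (log2 change -1.28 ± 0.44 (SE), adjusted p = 0.0276).

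Transcripts of DO and of the coactivator also fell. H2-Ob was at 15.4, 13.5 and 11.9 CPM in Fcgr2b-/- macrophages, against 85.7, 80.7 and 129 CPM in WT macrophages (log2 change -2.74 ± 0.18 (SE), adjusted p = 1.28e-06). Ciita was at 31.7, 13.7 and 5.98 CPM in Fcgr2b-/- macrophages, against 71.6, 72.9 and 110.3 CPM in WT macrophages (log2 change -2.49 ± 0.42 (SE), adjusted p = 0.000437). The 3 WT values stood above all Fcgr2b-/- values for both genes, and Ciita varied more over the Fcgr2b-/- libraries than H2-Ob did. H2-DMa was at 888, 661 and 714 CPM in Fcgr2b-/- macrophages, against 1174, 1245 and 2307 CPM in WT macrophages (log2 change -1.0 ± 0.23 (SE), adjusted p = 0.00317). H2-DMb1 was at 587, 405 and 387 CPM in Fcgr2b-/- macrophages, against 779, 816 and 1279 CPM in WT macrophages (log2 change -1.05 ± 0.20 (SE), adjusted p = 0.00119). H2-DMb2 was at 14.6, 8.78 and 9.00 CPM in Fcgr2b-/- macrophages, against 11.5, 15.2 and 33.3 CPM in WT macrophages (log2 change -0.73 ± 0.33 (SE), adjusted p = 0.0783), and it alone overlapped between the groups. H2-Oa, the DO alpha chain and not one of the 9, was listed in macrophages alone, at 0.972, 0.675 and 0.634 CPM in Fcgr2b-/- and 6.05, 4.52 and 9.92 CPM in WT macrophages (log2 change -2.10 ± 0.26 (SE), adjusted p = 6.53e-05). The call on Cd74 was lost without Fcgr2b-/- replicate 2 (-1.11, adjusted p = 0.107), Fcgr2b-/- replicate 3 (-1.23, 0.0806) or double-mutant replicate 2 (-1.28, 0.0573) and with WT and Fcgr2b-/- alone in the fit (0.173), and H2-DMb2 passed without WT replicate 1 (-1.03, 0.0216) or Fcgr2b-/- replicate 1 (-0.95, 0.0407).

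**Figure D2:**
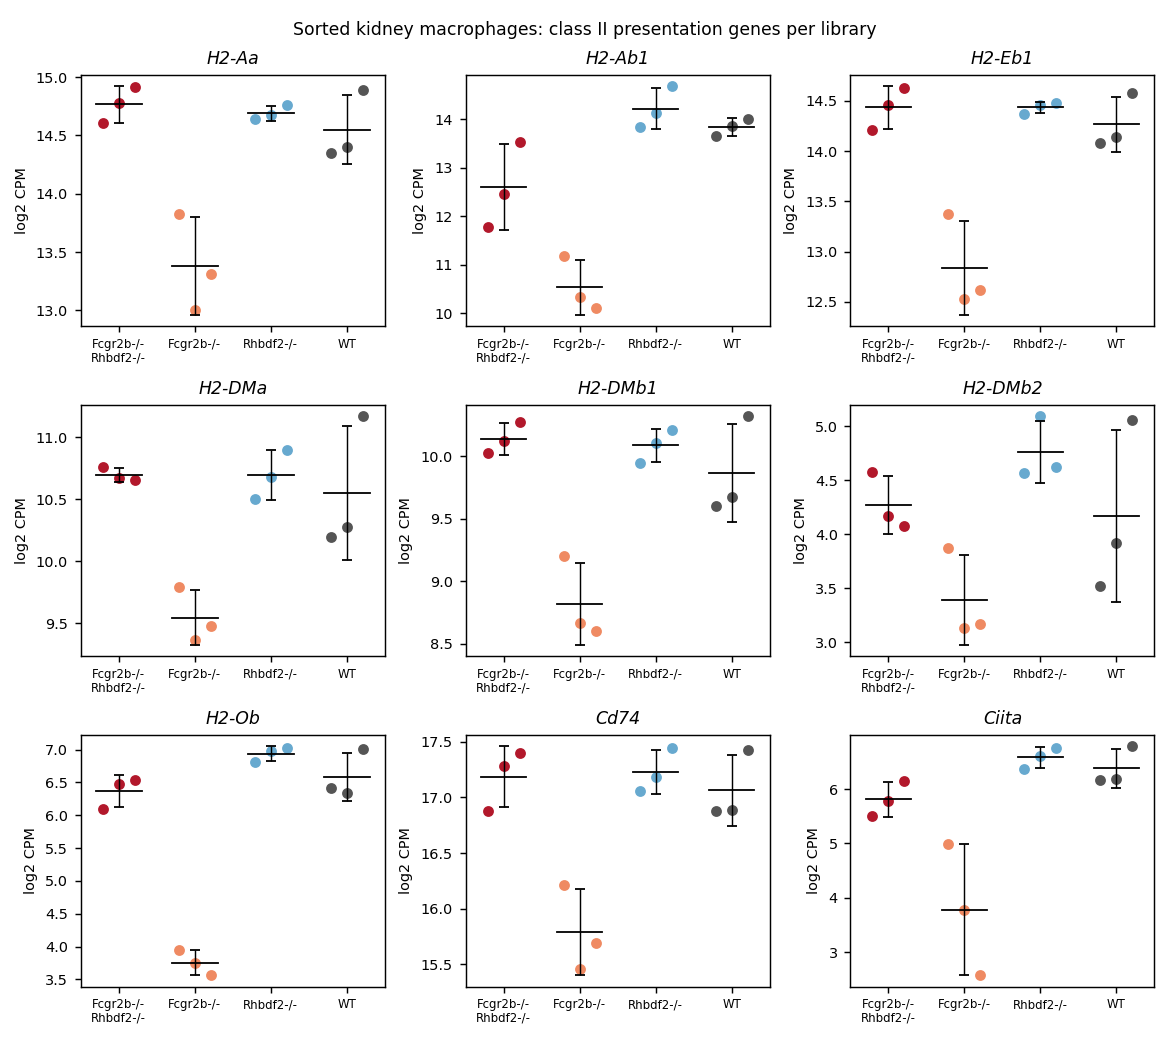
The 9 class II presentation genes in sorted kidney macrophages, as log2 CPM per library (points) by genotype on the x axis, with the mean (line) and SD (bars) of 3 libraries. All 9 genes are lower in every Fcgr2b-/- library than in every double-mutant library, and H2-Ab1 in double mutants lies between the Fcgr2b-/- and WT points.

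With Rhbdf2 also missing, 8 of 9 genes were higher in double-mutant than in Fcgr2b-/- macrophages, beside 15.8% of all genes called higher. All 9 had each double-mutant value above each Fcgr2b-/- value, and how many of all genes separated in this way was not counted. This comparison shares its Fcgr2b-/- libraries with the one against WT, so the values are given side by side and not correlated. H2-Aa was at 24885, 28056 and 30979 CPM in double mutants, against 8203 to 14563 CPM in Fcgr2b-/- macrophages (log2 change 1.39 ± 0.28 (SE), adjusted p = 0.00356). H2-Eb1 was at 18912, 22584 and 25390.5 CPM in double mutants, against 5898 to 10646 CPM in Fcgr2b-/- macrophages (log2 change 1.59 ± 0.28 (SE), adjusted p = 0.0016). Cd74 was at 120444, 159478 and 172711 CPM in double mutants, against 45074 to 75909.9 CPM in Fcgr2b-/- macrophages (log2 change 1.40 ± 0.44 (SE), adjusted p = 0.0311). The double-mutant values of these 3 genes overlapped the WT values. H2-Ob, with the largest log2 change of the 9 in this fit, was at 68.5, 89.1 and 92.8 CPM in double mutants, against 11.9 to 15.4 CPM in Fcgr2b-/- macrophages (log2 change 2.53 ± 0.18 (SE), adjusted p = 2.9e-05). H2-Ab1 was at 3514, 5662 and 11878 CPM in double mutants, against 1103 to 2323 CPM in Fcgr2b-/- macrophages (log2 change 2.05 ± 0.41 (SE), adjusted p = 0.0034) and Ciita was at 45.5, 55.0 and 70.6 CPM, against 5.98 to 31.7 CPM (log2 change 1.93 ± 0.42 (SE), adjusted p = 0.00496). Both genes lay below every WT library in the double mutants, by a narrow margin for Ciita. H2-DMa was at 1734, 1636 and 1618 CPM in double mutants, against 661 to 888 CPM in Fcgr2b-/- macrophages (log2 change 1.15 ± 0.23 (SE), adjusted p = 0.00328). H2-DMb1 was at 1041, 1112 and 1242 CPM in double mutants, against 387 to 587 CPM in Fcgr2b-/- macrophages (log2 change 1.32 ± 0.20 (SE), adjusted p = 0.00089). H2-DMb2, at 23.8, 18.0 and 16.8 CPM in double mutants against 8.78 to 14.6 CPM in Fcgr2b-/- macrophages, missed the threshold (log2 change 0.82 ± 0.33 (SE), adjusted p = 0.0776). The call on Cd74 was lost without Rhbdf2-/- replicate 1 (adjusted p = 0.0501) or 2 (0.057), Fcgr2b-/- replicate 2 (0.119) or 3 (0.0938), or double-mutant replicate 2 (0.11) or 3 (0.101), and H2-DMb2 passed without WT replicate 3 (0.0168) or Fcgr2b-/- replicate 1 (0.0463).

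Against WT macrophages none of the 9 genes passed in double mutants, where limma called 18.5% of all genes and 3620 genes, and 1 of the 9, had an unadjusted p below 0.05. Voom and the authors' deposited table called 0 of the 9. H2-Ab1 was closest, at -1.24 ± 0.41 (SE), adjusted p = 0.0539, and it passed without double-mutant replicate 3 (-1.72, adjusted p = 0.0106) or Fcgr2b-/- replicate 1 (-1.24, adjusted p = 0.0436). Without WT replicate 3 the 2 genes H2-DMa and H2-DMb1 passed as higher. Ciita was at -0.56 ± 0.42 (SE), adjusted p = 0.364 and H2-Ob at -0.22 ± 0.18 (SE), adjusted p = 0.422, and the other 6 lay between 0.09 and 0.27. H2-Oa was lower in double mutants, at 1.82, 2.65 and 1.68 CPM (log2 change -1.31 ± 0.26 (SE), adjusted p = 0.00863). Against Rhbdf2-/- macrophages 2 of 9 were lower in double mutants, beside 9.03% of all genes called lower. H2-Ab1 was at 3514, 5662 and 11878 CPM in double-mutant and 14756, 17805 and 26341 CPM in Rhbdf2-/- macrophages (log2 change -1.62 ± 0.41 (SE), adjusted p = 0.0233), and the groups did not overlap. H2-Ob was at 68.5, 89.1 and 92.8 CPM in double-mutant and 112, 126 and 130.3 CPM in Rhbdf2-/- macrophages (log2 change -0.56 ± 0.18 (SE), adjusted p = 0.0497). The call on H2-Ab1 was lost without Rhbdf2-/- replicate 2 (0.054) or 3 (0.0818) or double-mutant replicate 1 (0.0864) or 2 (0.0579). The call on H2-Ob stood at the threshold and was lost without any library other than WT replicate 3 (adjusted p 0.0506 to 0.167).

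In Rhbdf2-/- against WT macrophages none of the 9 passed, where limma called 2 of 10523 genes (0.019%) and 339 genes, but 0 of the 9, had an unadjusted p below 0.05. Voom and the authors' deposited table called 0 of the 9. The log2 changes of the 9 genes in Rhbdf2-/- against WT macrophages ran from 0.14 to 0.56, all groups overlapping. H2-Ab1 was at 14756, 17805 and 26341 CPM in Rhbdf2-/- macrophages, against 12899, 14776 and 16486 CPM in WT macrophages (log2 change 0.38 ± 0.41 (SE), adjusted p = 1). Ciita was at 82.8, 98.2 and 109 CPM in Rhbdf2-/- macrophages, against 71.6, 72.9 and 110.3 CPM in WT macrophages (log2 change 0.20 ± 0.42 (SE), adjusted p = 1). The interaction tested whether the change with Rhbdf2 loss differed between the Fcgr2b-/- and the WT background. It was positive and past the threshold for 3 of 9 genes, beside 6.03% of all genes called positive. These were H2-Ob (2.18 ± 0.25 (SE), adjusted p = 0.0025), H2-Eb1 (1.43 ± 0.39 (SE), adjusted p = 0.0356) and H2-DMb1 (1.10 ± 0.29 (SE), adjusted p = 0.0305). H2-Ab1 at 1.67 ± 0.58 (SE), adjusted p = 0.0827, Ciita at 1.73 ± 0.59 (SE), adjusted p = 0.0779 and Cd74 at 1.23 ± 0.62 (SE), adjusted p = 0.217 did not pass. The count fell to 1, H2-Ob, without Rhbdf2-/- replicate 1 or 2, Fcgr2b-/- replicate 2 or 3 or double-mutant replicate 2 or 3, and reached 6 without Fcgr2b-/- replicate 1.

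**Figure D3:**
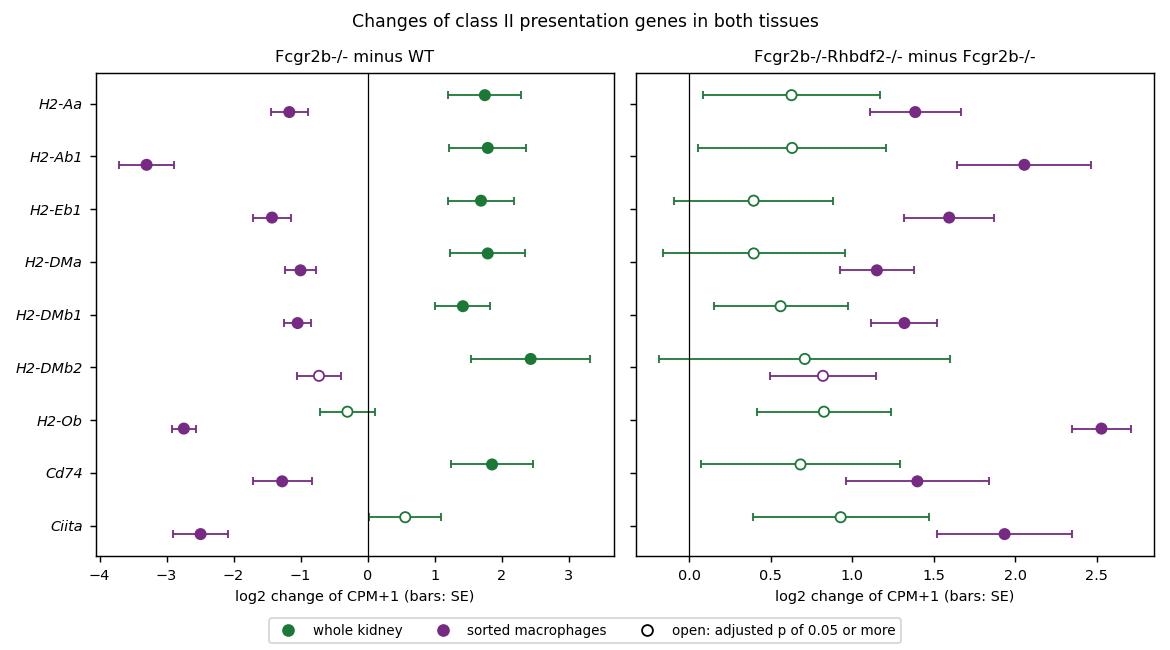
Log2 change of CPM+1 (x axis, bars are SE) of each class II presentation gene in whole kidney (green, above) and sorted macrophages (purple, below), for Fcgr2b-/- minus WT on the left and Fcgr2b-/-Rhbdf2-/- minus Fcgr2b-/- on the right, with filled points past the threshold. On the left Cd74 is at 1.86 in kidney and -1.28 in macrophages, and on the right all points are positive.

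The directions in the tissues were then set side by side. The 6 genes H2-Aa, H2-Ab1, H2-Eb1, H2-DMa, H2-DMb1 and Cd74 were called higher in Fcgr2b-/- kidneys and lower in Fcgr2b-/- macrophages, with no overlap of the groups in either tissue. Of all genes 29.5% were called higher in kidney and 28.5% lower in macrophages, and how many did both was not counted. The tables were normalized separately and the libraries made with different kits, so the difference between tissues was not tested. H2-Ob and Ciita fell in macrophages and did not pass in kidney, and H2-DMb2 rose in kidney and did not pass in macrophages. In kidney, H2-Ob per H2-DMb1 in CPM per kb was 0.0199 to 0.0287 in double-mutant, 0.00954 to 0.0277 in Fcgr2b-/-, 0.0446 to 0.104 in Rhbdf2-/- and 0.0488 to 0.0971 in WT libraries. In macrophages it was 0.0310 to 0.0377 in double-mutant, 0.0124 to 0.0157 in Fcgr2b-/-, 0.0518 to 0.0537 in Rhbdf2-/- and 0.0465 to 0.0518 in WT libraries. In both tissues each Fcgr2b-/- and each double-mutant library had a lower ratio than each WT library. In Fcgr2b-/- kidneys the denominator H2-DMb1 rose while H2-Ob did not pass, and in Fcgr2b-/- macrophages both genes fell. H2-DMb2 per H2-DMb1 was 0.0351 to 0.718 in double-mutant, 0.133 to 0.243 in Fcgr2b-/-, 0.0231 to 0.122 in Rhbdf2-/- and 0.0356 to 0.111 in WT kidneys, and 0.0118 to 0.0269 over all macrophage libraries. These ratios were looked at after the values were seen and carry no test.

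The balance of the chains was followed within each library. H2-Ab1 per H2-Aa, in CPM per kb, was 0.162, 0.231 and 0.439 in double-mutant and 0.183, 0.179 and 0.124 in Fcgr2b-/- macrophages. It was 0.663, 0.781 and 1.09 in Rhbdf2-/- and 0.706, 0.781 and 0.620 in WT macrophages. All 6 libraries that lack Fcgr2b lay below all 6 libraries that carry it, and double-mutant replicate 3 was the highest of the 6. In kidney the same ratio was 1.02 to 1.34 in double-mutant, 1.10 to 1.43 in Fcgr2b-/-, 1.19 to 1.23 in Rhbdf2-/- and 1.16 to 1.25 in WT libraries, and these ranges overlapped. H2-Eb1 per H2-Aa was 1.20 to 1.30 in double-mutant, 0.979 to 1.16 in Fcgr2b-/-, 1.30 to 1.36 in Rhbdf2-/- and 1.28 to 1.32 in WT macrophages, a narrower range than that of H2-Ab1. This ratio too was noticed after the values were seen and has no test.

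**Figure D4:**
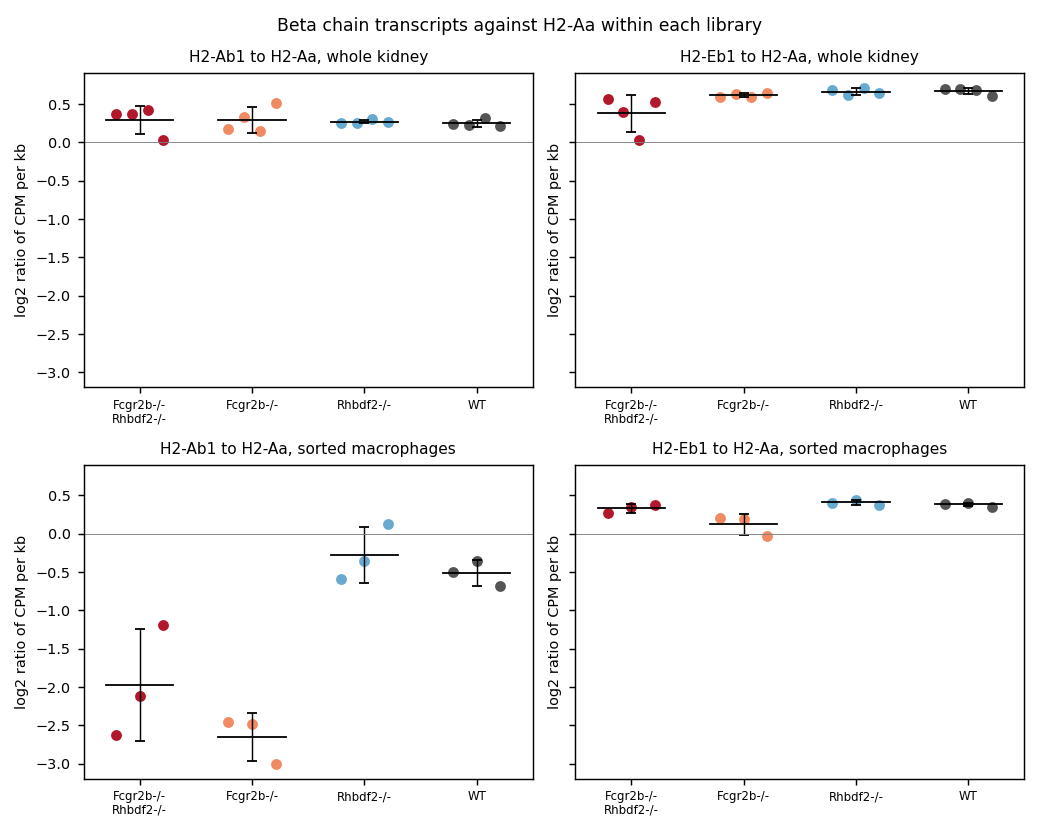
Log2 ratio of CPM per kb of H2-Ab1 (left) and H2-Eb1 (right) to H2-Aa in each library, in whole kidney (top) and sorted macrophages (bottom), by genotype, with the mean (line) and SD (bars). As a plain ratio, H2-Ab1 per H2-Aa is 0.124 to 0.439 in macrophages that lack Fcgr2b and 0.620 to 1.09 in those that carry it. In kidney the ratio of H2-Ab1 to H2-Aa stays between 1.02 and 1.43.

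Related genes were counted in Fcgr2b-/- against WT macrophages, where 24.2% of all genes were called higher and 28.5% lower. Of 8 processing genes 7 rose and none fell (median log2 change 1.65). They included Ctsl, cathepsin L, which cuts the invariant chain (2.79 ± 0.24 (SE), adjusted p = 7.53e-06), Ctsd (3.78 ± 0.38 (SE), adjusted p = 1.64e-05) and Lgmn, the asparaginyl endopeptidase (1.63 ± 0.21 (SE), adjusted p = 8.08e-05). In double-mutant against Fcgr2b-/- macrophages 6 of the 8 were lower, beside 13.8% of all genes called lower, with Ctsl at -2.24 ± 0.24 (SE), adjusted p = 0.000157 and Ctsd at -1.90 ± 0.38 (SE), adjusted p = 0.00326. Of 11 genes of the interferon gamma response 1 rose and 3 fell in Fcgr2b-/- macrophages, neither share above that over all genes. Ifi30 was the one that rose (2.44 ± 0.20 (SE), adjusted p = 4.87e-06). Among those that fell were Irf1 at -1.15 ± 0.33 (SE), adjusted p = 0.0118 and Irf8, a factor of dendritic cell and macrophage development, at -0.99 ± 0.27 (SE), adjusted p = 0.00783. Irf1 was higher in double-mutant than in Fcgr2b-/- macrophages, at 1.11 ± 0.33 (SE), adjusted p = 0.0255. Of 7 costimulation genes 2 rose and 2 fell in Fcgr2b-/- against WT, close to the shares over all genes. Icosl, the ligand of ICOS, was at -1.73 ± 0.29 (SE), adjusted p = 0.000415 and Cd86 at -0.74 ± 0.24 (SE), adjusted p = 0.0203, while Cd274, which encodes the inhibitory ligand PD-L1, was at 1.35 ± 0.35 (SE), adjusted p = 0.00667. Of the 5 listed factors of 7 that bind X and Y boxes Rfxank alone was lower (-0.47 ± 0.16 (SE), adjusted p = 0.0298), a call lost under median-of-ratios scaling (-0.40, adjusted p = 0.0571). Of 5 surface turnover genes 2 rose and 1 fell, with the tetraspanin Cd63 at 2.00 ± 0.14 (SE), adjusted p = 1.91e-06 and March1 at 0.08 ± 0.13 (SE), adjusted p = 0.602.

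Markers of other antigen-presenting cells were measured in the sorted cells as well. Of all genes 28.5% were called lower and 24.2% higher in Fcgr2b-/- than in WT macrophages, and 15.8% higher in double-mutant than in Fcgr2b-/- macrophages. Of the 8 listed dendritic cell markers of 10, 6 were lower and 1 higher in Fcgr2b-/- than in WT macrophages, and 6 were higher in double-mutant than in Fcgr2b-/- macrophages. Some of these dendritic calls, in both comparisons, were lost under plain totals or median-of-ratios scaling. Clec9a, the receptor of cross-presenting dendritic cells, was at -3.62 ± 0.48 (SE), adjusted p = 9.16e-05 in Fcgr2b-/- against WT and 4.40 ± 0.48 (SE), adjusted p = 0.000157 in double-mutant against Fcgr2b-/- macrophages. Zbtb46, the defining dendritic cell marker that was listed, was at 1.85 ± 0.906 CPM in double-mutant, 0.399 ± 0.115 CPM in Fcgr2b-/-, 2.94 ± 0.650 CPM in Rhbdf2-/- and 2.74 ± 0.264 CPM in WT macrophages (SD, n = 3). Flt3, the other defining one, was not listed. Dendritic markers summed to 445 to 750.4 CPM in double-mutant, 225 to 517 CPM in Fcgr2b-/-, 315 to 347.7 CPM in Rhbdf2-/- and 251 to 379 CPM in WT macrophages, ranges that overlap for Fcgr2b-/- and WT. All 3 listed B cell markers of 8 were lower in Fcgr2b-/- macrophages and summed to 199 to 230.1 CPM in double-mutant, 98.3 to 109 CPM in Fcgr2b-/-, 198 to 239.9 CPM in Rhbdf2-/- and 179 to 208 CPM in WT macrophages. The sums do not show each marker. In double mutants 1 of the 3 was higher than in Fcgr2b-/- macrophages. Against WT macrophages 2 of the 3 were lower in double mutants (median log2 change -1.85), beside 8.58% of all genes called lower. Of their defining genes Cd79a was at 0.236 ± 0.139 CPM in Fcgr2b-/- macrophages, against 8.17 ± 3.74 CPM in WT macrophages (SD, n = 3), and Ms4a1 was not listed. The 7 listed T cell markers of 8 summed to 267 to 428 CPM in double-mutant, 44.6 to 89.2 CPM in Fcgr2b-/-, 287 to 691 CPM in Rhbdf2-/- and 260.3 to 329.7 CPM in WT macrophages. Of these 7, only 1 was called lower in Fcgr2b-/- than in WT macrophages. In double-mutant against Fcgr2b-/- macrophages 6 were called higher, and some of those calls were lost under plain totals. Macrophage markers were higher for 8 of 13 in Fcgr2b-/- against WT (median log2 change 0.57) and lower for none. Of 5 listed injured tubule markers 3 were higher in Fcgr2b-/- than in WT macrophages, and they summed to 775 to 1385 CPM in double-mutant, 8243 to 10108 CPM in Fcgr2b-/-, 1112 to 1506 CPM in Rhbdf2-/- and 589.9 to 1303 CPM in WT macrophages. Most of that sum was Spp1, which macrophages also express, at 8359.6 ± 887 CPM in Fcgr2b-/- and 614 ± 350.0 CPM in WT macrophages, while the epithelial keratin Krt8 was at 2.06 ± 0.932 CPM in Fcgr2b-/- and 6.03 ± 2.29 CPM in WT macrophages. The part of these cells in the class II result was not tested.

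Per macrophage transcript, Cd74 fell in Fcgr2b-/- macrophages with each of the 3 denominators. The ratio of Cd74 to Csf1r in CPM per kb was 181, 197 and 183 in double-mutant, 85.0, 55.4 and 53.6 in Fcgr2b-/-, 143, 162 and 165 in Rhbdf2-/- and 132, 131 and 176 in WT macrophages. The difference in mean log2 ratio was -1.20 in Fcgr2b-/- against WT and 1.57 in double-mutant against Fcgr2b-/- macrophages, each with no overlap of the groups and an exact two-sided permutation p = 0.1, the smallest that 3 against 3 allows, so no pair could pass. Against Ptprc these differences were -0.59 and 0.55, and against Adgre1 -0.90 and 0.64. Double mutants and WT differed by 0.37 per Csf1r, -0.04 per Ptprc and -0.26 per Adgre1, so the direction of that pair depended on the denominator.

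**Figure D5:**
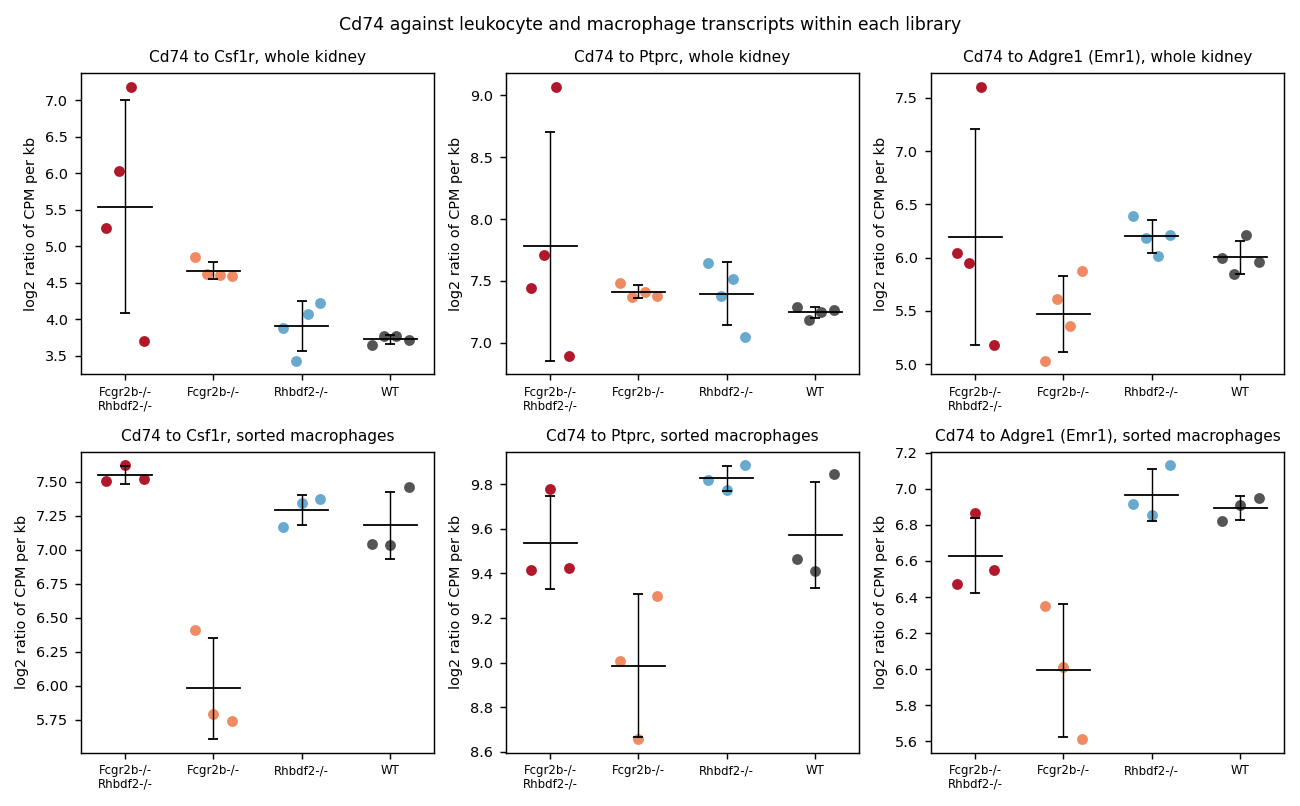
Log2 ratio of CPM per kb of Cd74 to Csf1r, Ptprc and Adgre1 (listed as Emr1) in each library, in whole kidney (top) and sorted macrophages (bottom), by genotype, with the mean (line) and SD (bars). In macrophages all 3 Fcgr2b-/- points lie below all WT points in each panel, while in kidney they lie above WT for Csf1r and Ptprc and mostly below for Adgre1.

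The genes whose pattern over libraries was most like the mean of the 9 were found by Pearson correlation, as a description. Over the 16 kidney libraries and 12106 genes that averaged 1 or more in log2 CPM, these were Psmb8 (r = 0.997), H2-M3 (0.992), Irf1 (0.99), Tap1 (0.988) and Samhd1 (0.986), then Parp9, H2-Q4, Slamf8, Cd3g and H2-D1 (0.98). Psmb8 is an immunoproteasome subunit and Tap1 a subunit of the peptide transporter of class I presentation. Over the 12 macrophage libraries and 10170 genes they were Scimp, an adaptor of class II signalling (0.98), BC035044 (0.975), Slco3a1 (0.972), Pkp3 (0.971) and Lilra5 (0.97), then Gripap1, Apobec3, Tmem229b, Smpdl3b and H2-M3 (0.965). H2-M3, a class I gene that presents formylated peptides, was on both lists. The libraries of a genotype share that genotype and, in kidney, a lane, so the points are not independent. Among the 9 themselves H2-Ob stood apart in kidney, with r = 0.604 against the mean of the others where the other 8 had 0.945 to 0.992. In macrophages H2-DMb2 (0.821) and H2-Ab1 (0.883) followed the others least, and the other 7 had 0.939 to 0.983.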

How the data were processed

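Polyadenylated RNA was sequenced from 16 whole kidney libraries (TruSeq, 50 bp single reads) and 12 libraries of sorted kidney macrophages (SMART-Seq v4, 51 cycles), per the labels' protocols. The authors deposited 1 table per tissue with log2 CPM per library, and per the file headers a log2 fold change, an F score, a p-value and an FDR for each of 4 comparisons, with exon length. Genome builds mm10 and GRCm38 appear in the submitters' processing notes, and no source used here states the aligner, the counter or the use of strand. The antilogs of the deposited log2 CPM do not sum to the same total in each library, so library sizes were scaled by the authors. The lowest values fell on a grid of whole reads (all of 420 kidney and 983 macrophage values, tolerance 0.1 read), which gave the reads per library.

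Each tissue was tested on its own with limma 3.58.1 (R 4.3.3) on log2(CPM+1), with the 4 genotypes in one fit, mean-dependent variance and Benjamini-Hochberg adjustment over all listed genes, which damps changes of genes near 1 CPM. The fit was tested on simulated data. Alternatives were a pseudocount of 0.25, the deposited log2 CPM, a filter at a mean log2 CPM of 1, plain totals, median-of-ratios scaling, voom on recovered reads, 2 genotypes at a time, the authors' deposited table and each library left out. Exact permutation tests used scipy 1.17.1. The 9 genes are reported in every comparison; of each other list at most 5 genes, those with the smallest p in Fcgr2b-/- minus WT of the tissue, and the defining markers are named; Ctsh, Spp1 and Krt8 are given for a lost call and for the makeup of a sum. Some genes of the other lists are counted but not reported here by name. The genes and lists were chosen with earlier results of these data known.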

Additional observations from a re-analysis of the deposited data

Results flagged for a closer look

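In WT kidneys replicate 3 stood apart from the other 3 libraries for 3 of the 9 genes, with H2-DMb2 at 2.49 CPM, H2-Ob at 4.01 CPM and Ciita at 1.89 CPM. Each gap to the nearest library exceeded the 95% critical value of Dixon's test for 4 samples, which chance passes in about 1 in 20 groups. Over 9 genes and 4 genotypes chance alone would give some such gaps, and these 3 come from the same library, so they are not independent. The 3 genes are the lowest of the 9 in kidney.

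In macrophages the change with Rhbdf2 loss was larger on the Fcgr2b-/- than on the WT background by a log2 difference of 1.10 for H2-DMb1, 1.43 for H2-Eb1 and 2.18 for H2-Ob, each past the threshold of the limma interaction test.

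In Fcgr2b-/- against WT, every library of one tissue moved one way and every library of the other tissue the opposite way for 6 genes. The log2 change was 1.75 in kidney and -1.17 in macrophages for H2-Aa, 1.79 and -3.30 for H2-Ab1, and 1.69 and -1.43 for H2-Eb1. It was 1.79 in kidney and -1.0 in macrophages for H2-DMa, 1.42 and -1.05 for H2-DMb1, and 1.86 and -1.28 for Cd74. The difference between the tissues was not tested, and how many of all genes moved in this way was not counted.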

How the results depend on the processing

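Of the values of single genes recomputed under the alternatives, 1156 kept direction and side of the threshold, 115 lost the call, 28 gained it and 3 changed sign; these were H2-Eb1 (-0.0587), H2-DMa (-0.19) and H2-DMb2 (-0.26) in double-mutant against Fcgr2b-/- kidneys without double-mutant replicate 3, beside 0.96, 1.11 and 1.81 without replicate 4. Leaving out 1 library at a time, the number of the 9 genes called ranged in kidney from 5 to 7 for Fcgr2b-/- against WT, 0 to 9 for double mutant against Fcgr2b-/-, 0 to 8 for double mutant against WT, 0 to 8 for double mutant against Rhbdf2-/-, and stayed at 0 for Rhbdf2-/- against WT and the interaction. In macrophages it ranged from 7 to 9 for Fcgr2b-/- against WT, 7 to 9 for double mutant against Fcgr2b-/-, 0 to 2 for double mutant against WT, 0 to 2 for double mutant against Rhbdf2-/-, and 1 to 6 for the interaction, and stayed at 0 for Rhbdf2-/- against WT. Other settings that moved a count were the authors' deposited table for double mutant against Fcgr2b-/- kidneys (1), 2 genotypes alone for double mutant against WT kidneys (2) and plain totals, voom and 2 genotypes alone for double mutant against Rhbdf2-/- kidneys (0 each). In macrophages they were plain totals for double mutant against WT (1), a pseudocount of 0.25, the deposited log2 CPM, median of ratios and voom for double mutant against Rhbdf2-/- (1 each), and plain totals and voom for the interaction (5 each). The causes were not tested.

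Over all genes, 5578 were called in double mutant against Fcgr2b-/- kidneys and 3550 with those 2 genotypes alone. Double mutant against WT kidneys gave 898, with plain totals 576, with voom 478 and without single libraries 121 to 1706, and double mutant against Rhbdf2-/- kidneys gave 431, with plain totals 139, with voom 77 and without single libraries 27 to 1566. In macrophages double mutant against WT gave 1943, with 2 genotypes alone 599 and without single libraries 450 to 3007, double mutant against Rhbdf2-/- gave 1918 and without single libraries 598 to 2601, and the interaction gave 1255 and without single libraries 517 to 1304. Rhbdf2-/- against WT macrophages gave 2, against 1 with the deposited log2 CPM, 0 with the filter, voom or the authors' table, 5 with 2 genotypes alone and 2 to 8 without single libraries. Plain totals moved the median log2 change of all genes by 0.20 in Fcgr2b-/- against WT kidneys, -0.12 in double mutant against Fcgr2b-/- kidneys, -0.10 in the kidney interaction and -0.15 in double mutant against WT macrophages, and by less than 0.1 in every other comparison.

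For Cd74 per Csf1r, leaving out a library gave 0.88 to 0.97 in Fcgr2b-/- against WT kidneys, each with an exact permutation p of 0.0571, the smallest such a split allows. The sign turned with Adgre1 in place of Csf1r in Fcgr2b-/- against WT kidneys (-0.54), in double mutant against Rhbdf2-/- kidneys (-0.00725), and in double-mutant macrophages against WT (-0.26) and Rhbdf2-/- (-0.34), and with Ptprc in double-mutant macrophages against WT (-0.035) and Rhbdf2-/- (-0.29).

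The letters a and b in macrophage titles as a replicate block gave 6 of the 9 genes and 877 genes for Rhbdf2-/- against WT, where the same 4 libraries without the block, added after seeing the data, gave 0 of the 9 and 170 genes. Deviations of same-letter libraries correlated at 0.24 and -0.05, and those of unlike letters at 0.28 and -0.29. With 4 libraries these values cannot settle whether the letters mark a pairing, and the labels do not say what the letters mean.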
